A study of Mus musculus with 60 samples.

Results

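Granule genes of immature myeloid cells, 9 in all, mostly encode proteins stored in granules. They were followed here through 5 organs of mice that lack functional Ftsj1 and of wildtype mice. The 9 members are Mpo, Elane, Prtn3 and Ctsg (azurophil granules), Ltf, Camp and Ngp (specific granules), and Prg2 and Wfdc21. They were chosen by name from the 55290 genes listed in each poly-A table, with the spleen fold changes of these same tables already known. Their differences between genotypes are therefore described here and support nothing by themselves. Ftsj1 encodes a methyltransferase that modifies ribose in the anticodon loop of tRNAs. The study took brain, heart, kidney, liver and spleen from 3 Ftsj1-deficient (Ftsj1_DF) and 3 wildtype (WT) males aged 4 months, fed ad libitum. The 6 mice came from a pair of litters, each with both genotypes. The sources used here do not say which part of Ftsj1 is altered, how, or on which strain. Every organ of every mouse gave 1 stranded poly-A library and 1 rRNA-depleted total RNA library, and the poly-A libraries are described here. All fold changes are Ftsj1-deficient over wildtype, with n = 3 mice against 3.

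Granulocytes load their granules in order while they mature in bone marrow. Promyelocytes make the azurophil proteins, among them myeloperoxidase (Mpo) and the serine proteases neutrophil elastase (Elane), proteinase 3 (Prtn3) and cathepsin G (Ctsg). Myelocytes and metamyelocytes then make the specific granule proteins lactoferrin (Ltf), the cathelicidin precursor (Camp) and neutrophilic granule protein (Ngp). Circulating neutrophils keep the proteins but have largely stopped making these mRNAs, so that the mRNAs mark immature cells. Mouse spleen is a site of blood formation in the adult. Prg2 encodes the major basic protein of eosinophil granules, and Wfdc21 encodes a small secreted protein with a whey acidic protein domain. In whole organs, fewer cells of a type and less RNA per cell cannot be told apart.

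The promoters of the azurophil members are shown because these 4 genes are made at the same stage and the interval of each lay above 0 in spleen. RefSeq windows of the build GRCm38.p6 were matched for 7 of the 9 members, and the 250 bases before the annotated start are used here. Capitals mark GAGGAA, a core of the sites bound by ETS factors such as PU.1, which drives myeloid genes. Each window is written 5′ to 3′ on the strand of its gene. The windows lie at chr10:79879417-79879666 on the plus strand (Prtn3), chr10:79886062-79886311 on the plus strand (Elane), chr11:87793534-87793783 on the plus strand (Mpo) and chr14:56102575-56102824 on the minus strand (Ctsg).
Prtn3: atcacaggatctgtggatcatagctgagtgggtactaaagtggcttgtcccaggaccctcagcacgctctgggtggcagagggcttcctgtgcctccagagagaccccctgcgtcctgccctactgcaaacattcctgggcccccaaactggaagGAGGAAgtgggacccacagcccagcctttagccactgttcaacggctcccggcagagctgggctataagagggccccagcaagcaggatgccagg
Elane: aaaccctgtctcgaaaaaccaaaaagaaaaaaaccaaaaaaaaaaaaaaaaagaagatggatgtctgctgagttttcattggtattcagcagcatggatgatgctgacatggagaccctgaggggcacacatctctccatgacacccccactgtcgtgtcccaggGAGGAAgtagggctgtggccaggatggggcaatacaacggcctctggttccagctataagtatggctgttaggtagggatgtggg
Mpo: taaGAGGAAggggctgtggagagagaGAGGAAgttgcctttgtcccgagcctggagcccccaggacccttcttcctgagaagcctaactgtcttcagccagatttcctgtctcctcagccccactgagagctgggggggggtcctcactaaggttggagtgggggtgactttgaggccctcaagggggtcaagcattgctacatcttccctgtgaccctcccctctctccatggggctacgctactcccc
Ctsg: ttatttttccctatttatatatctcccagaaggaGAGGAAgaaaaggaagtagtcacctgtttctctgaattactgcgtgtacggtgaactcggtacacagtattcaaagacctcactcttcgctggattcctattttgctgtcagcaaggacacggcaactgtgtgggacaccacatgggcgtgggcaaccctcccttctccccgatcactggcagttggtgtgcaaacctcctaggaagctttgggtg

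GAGGAA, searched on both strands, was in all 4 azurophil windows and in that of Ltf, and in 23.3% of all 32851 windows of this length in the table. Its first base lay 95 bases before the start in Prtn3, 85 in Elane, 216 in Ctsg, and 247 and 224 in Mpo. TTNNGNAA, a C/EBP-type pattern, was in the windows of Ngp and Ltf and in 36.8% of all windows. TAACNG, a Myb-type pattern, was in those of Elane and Mpo and in 19.8% of all windows. A match describes letters only and is not evidence of binding, and a missing match says only that the letters are not in that window.

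For each gene and organ the deposited values are a mean over the 6 libraries, a fold change and its standard error. The whole reads of each library were worked back from these values, as described under processing, and are given as normalised reads (reads divided by the size factor of the library). Libraries carry the letters A, B and C within a genotype by falling size factor, separately in each organ, and a letter does not stand for a mouse. Size factors differed 2.14-fold between the largest and the smallest in spleen and 17.97-fold in kidney. Ftsj1 itself, in normalised reads of spleen, was 1670.4, 1763 and 1709.5 in wildtype libraries A, B and C and 171, 164 and 125 in the deficient ones. In the authors' deposited table Ftsj1 ranged from 8.79% of the wildtype level (liver) to 15.4% (brain). Of 15 defining markers of the organs, all were highest in the organ they mark, for example Cd79a of B cells in spleen and Alb in liver.

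In spleen all 9 granule genes were higher in the deficient mice, with a median log2 fold change of 1.34 against 0.01 over all 22947 tested genes. By the authors' deposited values 3 members passed an adjusted p of 0.05, all higher: Prtn3, Prg2 and Wfdc21. Of all tested spleen genes 17, or 0.0741%, passed, and 11, or 0.0479%, passed as higher. The 95% interval of the log2 fold change lay above 0 for 7 members. It did so for 2.35% of spleen genes with a fold change, and excluded 0 in either direction for 4.76%. In every member all 3 deficient libraries lay above all 3 wildtype libraries. The same held for 746 of 10031 genes with a mean level of 100 to 4000 normalised reads, or 7.44%, a range that holds every member but Ngp. These shares are given beside the counts, and since the members were picked from this contrast nothing is read from them.

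The 4 azurophil genes were all higher in value, and 1 of them, Prtn3, passed the threshold. Prtn3 had 133, 199 and 375 normalised reads in wildtype libraries A, B and C and 749, 709 and 858 in deficient libraries A, B and C. The lowest deficient library thus held 1.89 times the highest wildtype one. Group means were 236 ± 125 (SD, n = 3) and 772 ± 76.9 (SD, n = 3), and the deposited log2 fold change was 1.72 ± 0.36 (SE), adjusted p = 0.0102 in the authors' deposited table. Elane, which lies directly beside Prtn3 on chromosome 10, had 129, 234 and 501 in wildtype and 742, 661 and 968 in deficient libraries. Mpo, the peroxidase that makes hypochlorous acid, had 179, 475 and 648 against 1125, 948 and 1215. Ctsg had 42.0, 112 and 159.5 against 292, 255 and 291. In all 3 genes wildtype C came closest to the deficient libraries and wildtype A was farthest below. The authors' deposited table gives log2 fold changes of 1.46 ± 0.44 for Elane, 1.34 ± 0.40 for Mpo and 1.43 ± 0.43 for Ctsg, with adjusted p = 0.224, 0.230 and 0.235. Their 95% intervals ran from 0.60 to 2.31, 0.55 to 2.13 and 0.58 to 2.27.

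**Figure D1:**
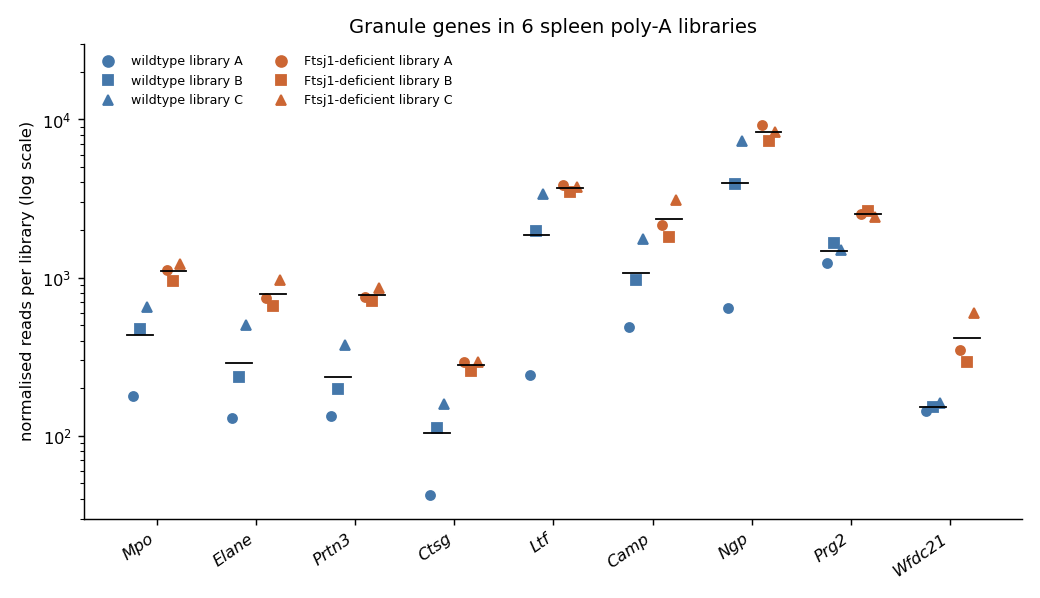
Normalised reads (log axis) of the 9 granule genes in each of the 6 spleen poly-A libraries; blue symbols are the 3 wildtype and orange symbols the 3 Ftsj1-deficient libraries, shapes are libraries A, B and C, and black lines are group means. All 3 deficient libraries lie above all 3 wildtype libraries in each gene, and wildtype library A is lowest in each, at 241 for Ltf against 1959.9 and 3379 in the other wildtype libraries.

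The 3 specific granule genes were also higher in value and none passed, and Ltf and Ngp varied widely among wildtype spleens. Ltf, the iron-binding lactoferrin, had 241, 1959.9 and 3379 normalised reads in wildtype libraries A, B and C and 3873, 3490.2 and 3734 in the deficient ones. Ngp, a cystatin-like protein and the most abundant member in spleen, had 639.9, 3900.1 and 7282 against 9165, 7357 and 8376. Camp, whose product is cut to an antimicrobial peptide, had 485, 968 and 1759 against 2151, 1813 and 3077. The groups did not overlap, but only just: the lowest deficient library exceeded the highest wildtype one 1.03 times for Ltf, 1.01 times for Ngp and 1.03 times for Camp. Within wildtype the highest Ngp library exceeded the lowest 11.4 times, while within the deficient group this ratio was 1.25. The deficient ratio of Ltf was 1.11. The wildtype ratio of Camp, 3.63, was close to the 3.88 of Elane and the 3.62 of Mpo. In the authors' deposited table the log2 fold changes were 0.99 ± 0.92 for Ltf, 1.07 ± 0.87 for Ngp and 1.13 ± 0.42 for Camp. None passed, at adjusted p = 0.917, 0.914 and 0.494 (authors' deposited table). The intervals of Ltf and Ngp held 0.

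Prg2 and Wfdc21 differed between the genotypes with little spread in wildtype. Prg2 had 1244, 1665 and 1487 normalised reads in wildtype and 2516, 2629 and 2426 in deficient libraries. The log2 fold change of Prg2 was 0.79 ± 0.17, adjusted p = 0.0102 in the authors' deposited table. It was the smallest fold change of the 9 members and had the smallest standard error. Wfdc21 had 144, 153 and 162 in wildtype and 348, 294 and 599 in deficient libraries. Its spread thus lay mostly in the deficient group, where library C stood 2.03 times above library B. The log2 fold change of Wfdc21 was 1.44 ± 0.31, adjusted p = 0.0172 in the authors' deposited table, the highest of the 3 called members. The next adjusted p among members was the 0.224 of Elane.

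Wildtype spleen libraries spread widely in the azurophil and specific granule members, with library A at the low end. Wildtype library A was the lowest of all 6 libraries in 9 of 9 members, and in 2615 (26.1%) of the 10031 genes of the middle range. The 2 shares are not alike. In the members the groups did not overlap, so only a wildtype library could be lowest, while most genes of the range lack that separation. In 8 members wildtype A was below B and B below C, an order found in 27.8% of the genes of the range, and Prg2 was the exception. With library A left out, the ratio of group means went from 3.28 to 2.69 for Prtn3, from 2.53 to 1.95 for Mpo, from 2.11 to 1.48 for Ngp and from 1.99 to 1.39 for Ltf. For Elane it went from 2.75 to 2.15, for Ctsg from 2.68 to 2.06 and for Camp from 2.19 to 1.72. It moved least for Prg2 (1.72 to 1.60) and Wfdc21 (2.71 to 2.63). The median log2 ratio over the members was 0.97 without library A. Leaving out wildtype library C instead moved values the other way. For Prtn3 the log2 ratio of means was 1.71 with all libraries, 1.43 without A and 2.22 without C. For Elane it was 1.46, 1.11 and 2.12.

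Other genes of the granulocyte line were read beside the members in the same spleen libraries. Further azurophil and promyelocyte genes had 0 of 9 tested genes passing in the authors' deposited table and a median log2 fold change of 0.17. Summed over the 5 of these genes with recovered reads, wildtype A was not the lowest library. The sums were 4371 in wildtype A, 3196 and 3500 in B and C, and 3570 to 5350 in deficient libraries. Prss57, a serine protease of azurophil granules, had 29.3, 28.9 and 55.0 normalised reads in wildtype and 81.1, 68.9 and 108 in deficient libraries. Fcnb, a ficolin of immature neutrophils, had 25.4, 151 and 341 against 350, 278 and 329, so its groups overlapped. Prss57 and Fcnb had the highest log2 fold changes of that list, 1.20 and 0.89, and do not stand for it. Ctsc had 0.17, Srgn 0.08 and Serpinb1a 0.05. Further specific and gelatinase granule genes had 0 of 14 tested genes passing and a median of 0.64, all 14 with a positive value. Lcn2, the siderophore-binding lipocalin, had 147, 892 and 1535 against 2037, 1814 and 2088. Its log2 fold change was 1.21, near the top of a list that ran from 0.14 (Cybb) to 1.45 (Stfa2l1). Of mature neutrophil genes 1 of 14 tested passed, Clec4e, a receptor for microbial glycolipids, with a log2 fold change of 1.14 ± 0.27 (adjusted p = 0.0399, authors' deposited table). The median of that list was 0.88. The calprotectin genes S100a8 and S100a9 had log2 fold changes of 1.496 and 1.55 in spleen (adjusted p = 0.296 and 0.213, authors' deposited table). Granulocyte transcription factor genes had 0 of 9 passing and a median of 0.20. Cebpe, needed for specific granules, had 15.6, 101 and 184 in wildtype and 302, 189 and 175 in deficient libraries, while Myb lay between 2400.4 and 2992 in all 6. Of the 9 factor genes Cebpe had the highest log2 fold change, 1.15, and Runx1 the lowest, -0.33.

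Markers of other cells moved with some of these libraries. Summed over the recovered genes of a list, mature neutrophil genes (11 of 15) were 7322 in wildtype A, 15119 and 17531 in wildtype B and C, and 20351 to 28479 in deficient libraries. Eosinophil, basophil and mast cell genes (14 of 16) were 8117 in wildtype A, 13802 and 16959 in B and C, and 12698 to 16321 in deficient libraries, which overlapped wildtype. Red cell genes (4 of 11) were 1501 in wildtype A, 6306 and 7200 in B and C, and 2604 to 9952 in deficient libraries. The globin genes, too abundant for their reads to be recovered, had deposited log2 fold changes from 0.77 (Hba-a1) to 0.91 (Hbb-bt). Proliferation genes (7 of 10) were not low in wildtype A, at 20939 against 13617 to 21179 in the others of its genotype, and platelet genes (5 of 6) were 8244 there against 5710.1 and 7649.6. Fpr2, Itgam, Anxa1, Ear1, Ear2, Alas2 and Ms4a1 are listed at 0 in spleen, and the sources used here give no reason. In the authors' deposited table the median spleen log2 fold change was 0.76 for red cell genes (10 of 10 positive), 0.50 for platelet genes (5 of 5) and 0.38 for eosinophil, basophil and mast cell genes (12 of 14). It was 0.30 for monocyte and macrophage genes (9 of 9), 0.11 for proliferation genes (9 of 10), 0.06 for blood progenitor genes (5 of 8) and 0.06 for lymphocyte genes (5 of 8). No gene of these 7 lists passed the threshold in spleen. The part of cell composition in the members' differences was not tested.

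**Figure D2:**
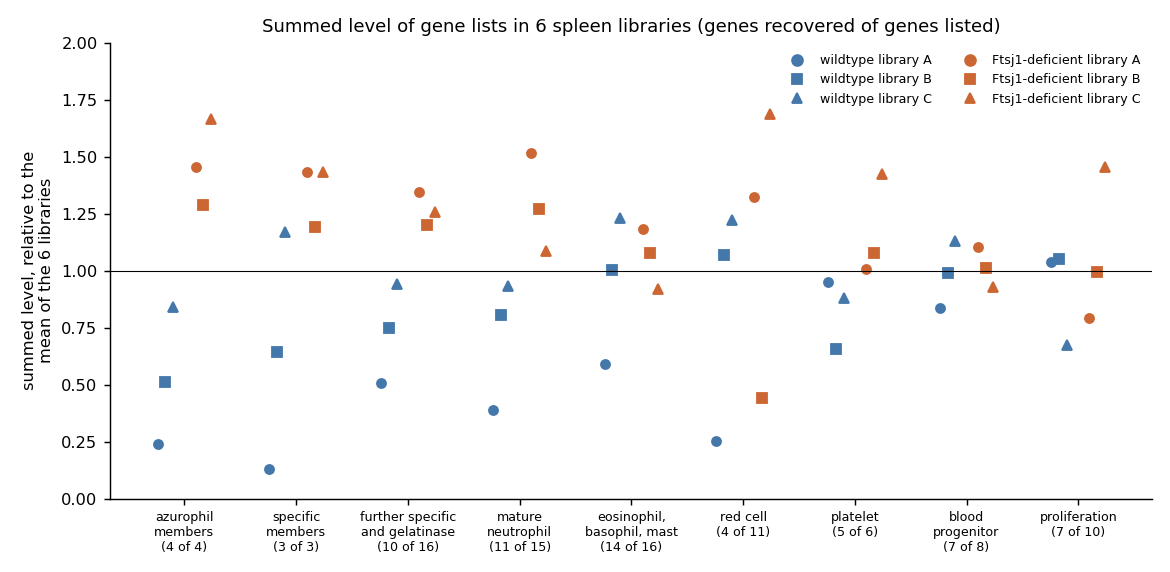
Summed normalised reads of 9 gene lists in each of the 6 spleen libraries, divided by the mean of the 6 libraries (linear axis from 0); blue symbols are wildtype and orange symbols Ftsj1-deficient libraries, and the numbers under each list are genes recovered of genes listed. Wildtype library A lies lowest for every plotted list except platelet and proliferation genes. Among the lists not plotted it was not lowest for further azurophil and promyelocyte genes, granulocyte transcription factors, granulopoiesis cytokines and chemokines, and lymphocyte genes.

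Prg2 did not follow Epx and Ear6 from library to library. Epx, the eosinophil peroxidase, had 5.86, 94.7 and 199 normalised reads in wildtype and 481, 288 and 43.3 in deficient libraries. Ear6, an eosinophil ribonuclease, had 0, 44.7 and 159.5 against 335, 212 and 15.1. Deficient library C thus held little Epx and Ear6, while its Prg2 (2426) was close to that of the other deficient libraries. Epx and Ear6 had the highest log2 fold changes of the 14 tested eosinophil, basophil and mast cell genes, 1.44 ± 1.35 and 1.46 ± 1.99, and do not stand for the list. In the same list Siglecf had 0.77 ± 0.52, Ccr3 0.32 ± 0.71 and Il5ra -0.36 ± 0.19. Prg3, the close relative beside Prg2 on the chromosome, had a log2 fold change of -0.05 ± 0.28 (adjusted p = 0.989 in the authors' deposited table).

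Spleen had the highest level of 8 members, and liver that of Wfdc21. Levels between organs are compared per 1000000 of the summed normalised reads of an organ, the scale of the values in this paragraph. Ngp stood at 47.8 in spleen and 0.593 in brain, the next organ, and Camp at 13.4 against 0.117. Prtn3 had the smallest gap, 3.94 in spleen against 0.968 in brain. Wfdc21 reached 229 in liver against 2.21 in spleen, which made it the 503rd most abundant gene of liver. Per kilobase of transcript in spleen, Ngp was highest at 39.1, followed by Prg2 at 18.6, Camp at 17.6 and Ltf at 7.92, with Ctsg lowest at 1.497. In heart and kidney Ctsg is listed at 0.

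**Figure D3:**
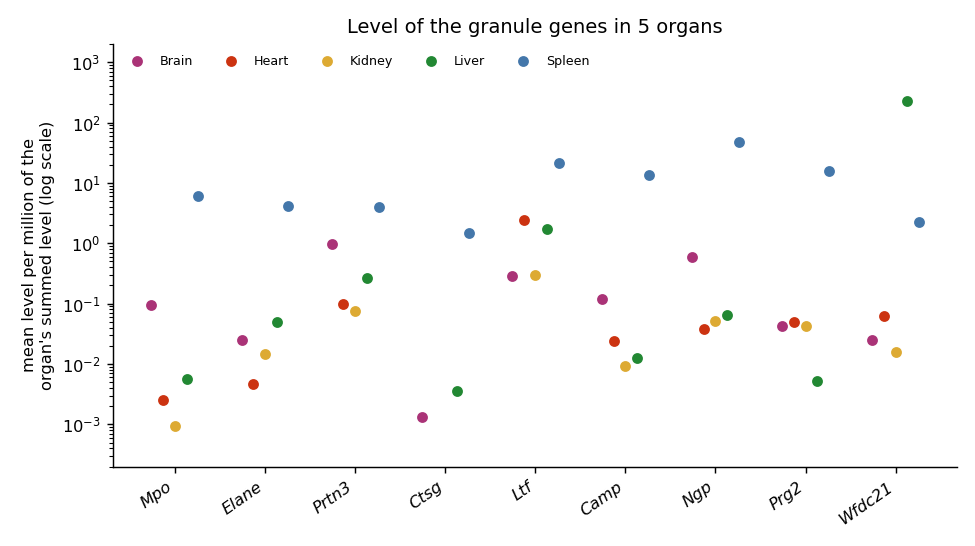
Mean level of each granule gene in 5 organs, per 1000000 of the summed level of the organ (log axis), over 6 libraries an organ; Ctsg in heart and kidney is listed at 0 and has no point. Spleen is highest for 8 genes, and liver for Wfdc21 at 229.

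Outside spleen no member passed an adjusted p of 0.05 in the authors' deposited table. The counts were 0 of 5 members with an adjusted p in brain, where 0.0607% of all tested genes passed, 0 of 3 in heart (0.541%), 0 of 4 in kidney (0.987%) and 0 of 3 in liver (2.29%). Unadjusted, the p of Prtn3 in liver (0.00185) was the one value under 0.05 in the authors' deposited table. Intervals excluded 0 for 0 of 9 members in brain (2.34% of all genes with a fold change), 1 of 8 in heart (5.77%), 0 of 8 in kidney (4.11%) and 1 of 9 in liver (6.67%). Median log2 fold changes were -0.35, -1.26, -0.08 and 0.04 in that order. These members rest on few reads: 5 in brain, 2 in heart, 4 in kidney and 5 in liver had a mean level of 10 or more, and most intervals span several log2 units. S100a8 and S100a9 passed as higher in the authors' deposited table in heart (log2 fold changes 1.83 and 2.26), kidney (1.24 and 1.17) and liver (0.99 and 0.88). In heart 4 of 13 tested mature neutrophil genes passed, all higher. Cxcr2 had the smallest adjusted p of these, 9.83e-07 (authors' deposited table), with a log2 fold change of 2.27. Whether the members' fold changes differ between organs, or from those of the calprotectin genes, was not tested.

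**Figure D4:**
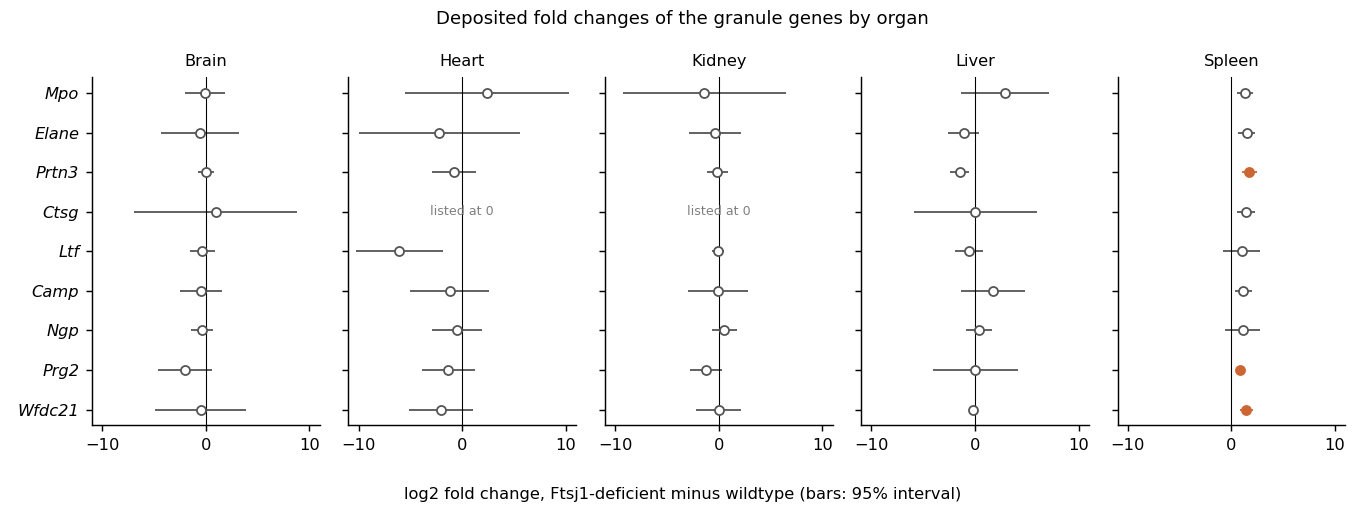
Deposited log2 fold changes (Ftsj1-deficient minus wildtype) of the 9 granule genes in each organ, with 95% intervals as bars. Filled orange points had a deposited adjusted p under 0.05, and 2 entries of Ctsg are listed at 0. All 9 spleen points lie to the right of 0, and the intervals of the other organs are mostly wide.

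In heart the lowest fold change was that of Ltf, and nearly all of its reads lay in 1 library. Ltf had 2034 normalised reads (10717 reads) in wildtype library A, and 3.57 and 13.6 in wildtype libraries B and C. The deficient libraries had 3.73, 24.9 and 2.17. The deposited log2 fold change of -6.07 ± 2.15 carries no p in the authors' deposited table, and without that library the log2 ratio of means was 0.26. No other heart member was above 29.4 in any library. Wildtype A was also the highest library for Prtn3 (24.5), Prg2 (14.8), Camp and Ngp (7.21 each) and Elane (3.99), but not for Wfdc21 and Mpo. Besides Ltf, 28 heart genes at a mean level of at least 10 carry no p, and reads per library were recovered for 20. Of these 13 were highest in wildtype A, among them genes of airway and lung lining and 3 immunoglobulin segments. A further 5 were highest in wildtype B, all of them immunoglobulin segments, and 2 in deficient library C. The share of all heart genes highest in wildtype A was not determined, and nothing is read from these counts. Bpifb1, secreted in the airways, had 1344 in wildtype A and at most 30.8 elsewhere. The surfactant gene Sftpb had 254 and at most 22.8, and the phosphate transporter gene Slc34a2 had 167 and at most 2.80. Their part in the Ltf value was not tested.

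**Figure D5:**
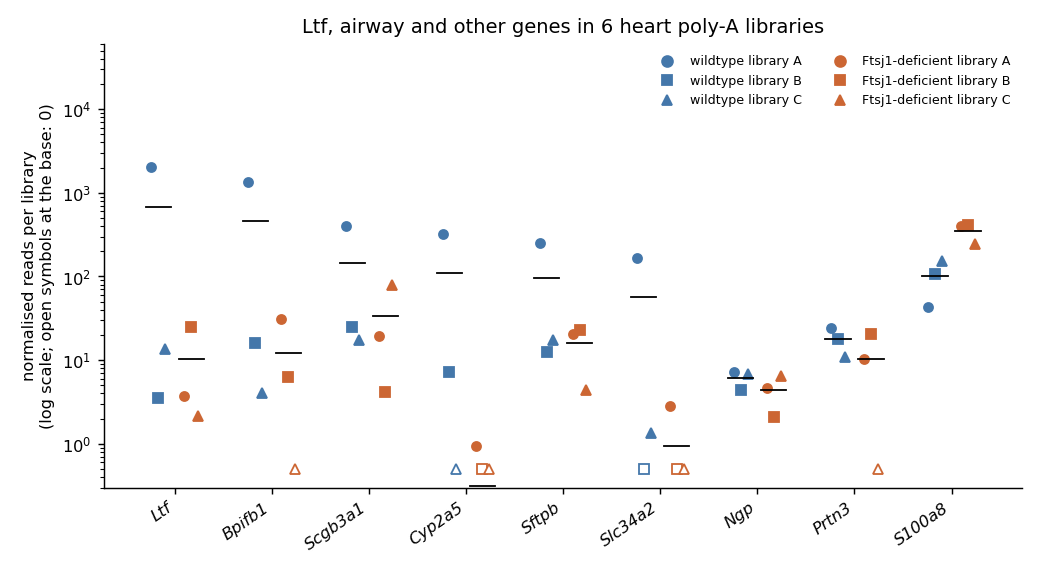
Normalised reads (log axis; open symbols at the base stand for 0) of Ltf, 5 other genes without a deposited p, and Ngp, Prtn3 and S100a8 in each of the 6 heart libraries; blue is wildtype, orange Ftsj1-deficient, and black lines are group means. Wildtype library A is highest for Ltf (2034), those 5 genes, Ngp and Prtn3, and lowest for S100a8 (43.3).

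Of the 9 members, 5 had a positive and 4 a negative log2 fold change in liver. The positive ones were Mpo (2.93 ± 2.16), Camp (1.74 ± 1.58), Ngp (0.36 ± 0.65), and Ctsg and Prg2 (both 0.04). Their mean levels ran from 0.86 (Ctsg) to 15.5 (Ngp). Prtn3 was lower in the deficient mice in value. It had 60.4, 88.0 and 133 normalised reads in wildtype and 19.5, 61.3 and 19.2 in deficient libraries, so that deficient library B overlapped wildtype library A. The log2 fold change was -1.48 ± 0.48 (adjusted p = 0.0704, authors' deposited table). Elane, its neighbour, had 8.55, 19.8 and 19.3 against 5.37, 5.22 and 11.8. Liver Ltf had 961 in wildtype A and 240.5, 256 in B and C, against 425, 258 and 305 in deficient libraries. Its log2 fold change of -0.56 ± 0.68 turned to 0.41 without wildtype library A. Wfdc21, at a mean level of 54901, had a log2 fold change of -0.22 ± 0.19 with an interval from -0.59 to 0.15, and its reads per library were not recovered.

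In brain and kidney the interval of every member with a fold change held 0. Kidney Ngp had 17.4, 10.8 and 14.01 in wildtype and 19.8, 23.7 and 18.7 in deficient libraries, with a log2 fold change of 0.54 ± 0.61. Kidney Prg2 had 19.3, 17.7 and 24.9 against 5.95, 17.4 and 0, with a log2 fold change of -1.23 ± 0.79. Kidney Ltf, the member with the narrowest interval there, had a log2 fold change of -0.06 ± 0.28 and lay between 80.7 and 117 in all 6 libraries. Brain Prtn3 had 198, 255 and 194 in wildtype and 208.5, 103 and 354 in deficient libraries, with a log2 fold change of 0.03 ± 0.39. Brain Ngp lay between 25.7 and 183 and brain Mpo between 2.66 and 39.7. Plppr3, a neuronal gene that lies next to Prtn3, had a mean level of 11009.5 normalised reads in brain and 171 in spleen, and its part in the brain level of Prtn3 was not tested.

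Genes beside the members on the chromosomes were compared to see whether whole neighbourhoods moved. The 3 nearest protein-coding genes on each side gave 47 genes that are no members and stand in the tables. In spleen, where 0.0741% of all tested genes passed, 1 of 43 tested neighbours passed in the authors' deposited table. It was Wfdc17, a relative of Wfdc21 in the same gene cluster. Wfdc17 had a mean level of 2069 and a log2 fold change of 1.16 ± 0.26 (adjusted p = 0.0194). The median of neighbours at a mean level of at least 10 was 0.06. Outside spleen 1 of 38 tested neighbours passed in kidney, where 0.987% of all tested genes did. It was the lactoperoxidase gene Lpo near Mpo, with a log2 fold change of 1.71 ± 0.32 (adjusted p = 5.18e-05, authors' deposited table). In liver 1 of 33 tested neighbours passed, Cfd, as lower, where 2.29% of all tested genes passed. In brain and in heart 0 of 38 passed (0.0607% and 0.541% of all tested genes). Cfd, the complement protease gene on the other side of Elane, had 1.19 ± 0.44 (adjusted p = 0.481 in the authors' deposited table) in spleen.

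The genes most like the members across the organs were sought by the distance between a gene's 5 Wald statistics (fold change over its standard error, 1 an organ) and the members' medians, over 28693 genes. The nearest was 2310074N15Rik at a distance of 0.702, followed by the tubulin gene Tubb6 (0.731), the junctional adhesion gene Jam3 (0.758) and the elastin gene Eln (0.805). Their spleen log2 fold changes were 2.94, 0.42, 0.43 and 0.43. The likeness is one of 5 statistics per gene and describes these tables only.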

How the data were processed

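The 30 poly-A libraries were used through the authors' deposited comparison tables, 1 an organ, and the total RNA tables only for long non-coding RNAs. Per the submitters' processing notes, the build was GRCm39, and featureCounts of Subread 2.0.3 and DESeq2 were used. Per the file headers, the deposited signal is the mean normalised read count over 6 libraries, with a log2 fold change and its standard error, a Wald score and a p-value with its adjusted value. The authors' filters and model were not otherwise given in the sources used here.

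From these values the whole reads of each library were worked back. Size factors came from features with 1 read, and the reads of a gene are the whole numbers that return its mean and, in a 2-group negative binomial fit with the deposited standard error, its fold change (Python 3.11.15, numpy 2.4.6, numba 0.67.0). The split into genotypes is the one that returned the deposited fold changes within 1e-12. All features below a level of 2 came out whole. The search was tested on genes simulated with the spleen size factors, at spleen levels of 100 to 4000 and with the same fit. It returned the reads of 200 of 200 such genes. Other organs and other levels were not simulated. In spleen 10031 of 10050 genes at a level of 100 to 4000 had 1 solution. Levels above 7000 were not sought. Among spleen features seen in 1 library only, 125 had 3 reads and 200 had 4, so mates of a pair may have been counted separately. No test beyond the deposited one was run, and 95% intervals are normal. Members and lists were chosen with earlier results of these data known. The text names all members, Ftsj1, S100a8 and S100a9, up to 3 genes per list and organ with the smallest adjusted p under 0.05, and genes near the members by the distance of 5 Wald statistics. All other genes named were chosen after their values were seen. Levels per length used GENCODE vM21 transcripts. Alternatives included other thresholds, adjustments, filters and scalings, and libraries left out, the latter chosen after seeing the data.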

Additional observations from a re-analysis of the deposited data

How the results depend on the processing

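No paired analysis was possible because the deposited tables hold no value per mouse and the recovered libraries cannot be tied to mice. Other thresholds, adjustments, filters and scalings left 43 values in place and moved 5. A median counted as in place if it shifted by less than the members' median standard error, a wide margin of 1.76 log2 units in heart. Counts outside spleen that stayed at 0 also counted as in place. The heart median went from -1.26 to -3.43 with only the 2 members of mean level 10 or more, Ltf (-6.07) and Prtn3 (-0.79). Nearly all reads of heart Ltf lay in 1 library. In liver 1 member, Prtn3, passed at an adjusted p under 0.10 against 0 at 0.05. Scaled to the median gene, the members' median level as a percentage of spleen was 0.268 in heart, 0.477 in kidney and 0.491 in liver, against 0.177, 0.270 and 0.240 per 1000000 summed reads; the cause was not tested. With 1 spleen library left out at a time, the members' median log2 ratio ran from 0.97 to 1.75. That of heart Ltf ran from -7.86 to 0.26, of liver Ltf from -0.88 to 0.41 and of liver Prtn3 from -2.28 to -1.15. Groups of 3 mice and the low levels outside spleen limit precision, and depth per library is known only through size factors.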

Other observations

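A pair of granulocyte long non-coding RNAs in the tables had a median log2 fold change of 0.23 in spleen poly-A libraries and -0.01 in spleen total RNA libraries, and neither passed the authors' threshold. In liver, where 2.29% of all tested genes passed in the authors' deposited table, 2 of 6 tested further azurophil and promyelocyte genes passed, both higher: Ctsc (log2 fold change 0.76), which activates granule serine proteases, and Serpinb1a (1.08), an inhibitor of them. Of the further specific and gelatinase granule genes 1 of 10 tested passed there, Cybb (0.80, adjusted p = 0.000927 in the authors' deposited table), a subunit of the phagocyte oxidase. Ctsc and Serpinb1a had mean levels of 23235 and 4464 in liver, while Prss57, Fcnb and Ms4a3 of the same list had 0.65, 0.71 and 0.08. All 9 monocyte and macrophage genes were positive in liver, with a median of 0.44, and 0 passed. As lower, 1 of 8 tested lymphocyte genes passed in liver, Cd4 (-0.85, adjusted p = 0.0204 in the authors' deposited table). Also lower was 1 of 9 tested proliferation genes, Rrm2 (-0.89, adjusted p = 0.00929 in the authors' deposited table). The part of cell type in these calls was not tested. Liver Prtn3 was lower in value. In the authors' deposited table Cfd, beside Elane, was lower in liver with a log2 fold change of -2.52 ± 0.53 (adjusted p = 0.000376).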
